A study of Mus musculus with 8 samples.

Results

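The genes of the mitochondrial genome were examined in Paneth cells sorted from the mouse small intestine. Members were all genes that the annotation places on chrM, each with a symbol that starts with mt-, and they numbered 37 of the 55414 genes in the count table. They comprised 13 mRNA genes, 2 rRNA genes and 22 tRNA genes. Poly(A)-selected RNA was sequenced from 8 libraries. In 4 of them (water) the C57BL/6J mice had drunk Milli-Q water, which is ultrapure, for 7 days, and in the other 4 (zinc) C57BL/6J mice had drunk water with 25 mM ZnSO4 for the same time. The labels name no other allele or agent in either group. The replicates were numbered 1 to 4 in each group. The study describes its sorted Paneth cell samples as coming from individual mice, while the labels tie no library to an animal. Raw counts per gene were available, and the library totals ran from 20760764 to 24117111 counts.

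Paneth cells are secretory cells at the base of the intestinal crypts that release antimicrobial peptides and lysozyme. Mitochondrial DNA is a small circle whose strands are both transcribed as long precursors. In these precursors tRNAs lie between most of the mRNAs and rRNAs, and cutting them out releases the single transcripts. Most of the mRNAs receive short poly(A) tails. Every protein that the mRNAs encode is a subunit of the oxidative phosphorylation machinery. Complex I takes electrons from NADH and complex III passes them to cytochrome c. Complex IV passes the electrons to oxygen, and complex V is the ATP synthase. All other subunits, and the proteins that copy, transcribe, process and translate the mitochondrial genome, come from nuclear genes. The nuclear genome also holds old insertions of mitochondrial DNA, and a read from such a stretch cannot be placed by its sequence if the copy has no difference within the read.

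The cell type given by the labels was checked first. Of 11 Paneth cell markers 10 were in the table, and they took 44.3% to 54.6% of counts with water and 42.2% to 55.0% with zinc. Enterocyte markers took 0.0335% to 0.0486%, goblet cell markers 0.929% to 1.65% and stem and dividing cell markers 0.382% to 0.804% over the 8 libraries. The immune markers Cd3e, Cd3g, Itgax and Cd52 were at 0 in every library, as were 6 of 10 stromal, muscle and vessel markers (Col1a1, Col1a2, Pdgfra, Acta2, Myh11 and Cdh5). Zinc replicates 1 and 3 stood apart in mitochondrial counts, with the lowest and the highest share of the 8 libraries, and results that rest on them are given with and without them.

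The mRNA genes divided sharply by whether their sequence also occurs in the nuclear genome. One stretch of chromosome 1, chr1:24650616-24655269 on GRCm39, matched chrM from position 6390 to 11042 with 99.9% identity over 4654 aligned columns, with 2 mismatches and 1 gap. It runs on the minus strand. The copy begins inside mt-Co1 (complex IV subunit 1) and ends inside mt-Nd4 (complex I subunit 4). The 2 junctions are shown because the genes wholly between them held almost no counts. Capitals mark the 14 bases inside the copied stretch and lower case the flanks.
mt-Co1, chrM:6376-6403: ttggtggtctaaccGGAATTGTTTTATC
copy, chr1:24655256-24655283, minus strand: ctcatggattggcaGGATTTGTTTTATC
mt-Nd4, chrM:11029-11056: ACTCCTCAGTTAGCcacatagcacttgt
copy, chr1:24650602-24650629, minus strand: ACTCCTCAGTTAGCtagagaaagtagcc
Only the flanks differ at the mt-Nd4 junction, while the mt-Co1 junction also holds one of the mismatches inside the copy, A6393T (chrM base, position counted from 1 on chrM, base of the copy). The other mismatch, T9461C, lies in mt-Nd3 (complex I subunit 3), and the gap is an additional base in the copy of mt-Tr, the arginine tRNA gene. These differences are shown because no others tell the copy from chrM in 4654 columns. The capital letter marks the base that differs or is added.
mt-Nd3, chrM: gaagagagtaatTaacctgtacact
mt-Nd3, copy: gaagagagtaatCaacctgtacact
mt-Tr, chrM: gtttaaaaaaaattaatgatttcg
mt-Tr, copy: gtttaaaaaaaaAttaatgatttcg

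To measure what a read could identify, each gene was cut into all its windows of 50 bases, and a window was called unique if it occurred nowhere else in GRCm39 on either strand. Of the mRNA genes that lie wholly inside the copied stretch, 5 had 0 unique windows, and all 5 had 0 counts in all 8 libraries. They were mt-Co2 (complex IV subunit 2, ENSMUSG00000064354, chrM:7013-7696), mt-Atp8 (ATP synthase subunit 8, ENSMUSG00000064356, chrM:7766-7969), mt-Atp6 (ATP synthase subunit 6, ENSMUSG00000064357, chrM:7927-8607), mt-Co3 (complex IV subunit 3, ENSMUSG00000064358, chrM:8607-9390) and mt-Nd4l (complex I subunit 4L, ENSMUSG00000065947, chrM:9877-10173). The remaining gene inside it, mt-Nd3 (ENSMUSG00000064360, chrM:9459-9806), had 3 unique windows of 299, all across T9461C, and held 0, 0, 1 and 4 counts with water and 0, 1, 0 and 1 with zinc. A count of 0 allows up to 3 counts, which is 0.124 to 0.145 CPM here (counts scaled to a library total of 1000000), and covers counting error only. For the 5 genes at 0 it gives a limit on the reads assigned to them and not on their RNA.

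The 7 mRNA genes outside the stretch or across its ends were all counted. mt-Co1 (ENSMUSG00000064351, chrM:5328-6872) had 48.9% unique windows and mt-Nd4 (ENSMUSG00000064363, chrM:10167-11544) had 37.8%. mt-Nd1 (complex I subunit 1, ENSMUSG00000064341, chrM:2751-3707), mt-Nd6 (complex I subunit 6, ENSMUSG00000064368, chrM:13552-14070) and mt-Cytb (cytochrome b of complex III, ENSMUSG00000064370, chrM:14145-15288) had 100% each. mt-Nd2 (complex I subunit 2, ENSMUSG00000064345, chrM:3914-4951) had 91.7% and mt-Nd5 (complex I subunit 5, ENSMUSG00000064367, chrM:11742-13565) had 92.4%. With windows of 75 bases mt-Co1 had 60.2% and mt-Nd4 38.5%, with windows of 100 bases 69.2% and 39.2%, and the 5 genes at 0 had none at either length. Of the 50-base windows of mt-Co1 28.7% lay in the chromosome 1 copy, and its other windows that were not unique matched elsewhere in the genome. Each of these genes is a single exon, and all lie on the plus strand except mt-Nd6.

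The copy on chromosome 1 held almost no counts either. Its 7 annotated pseudogenes in the table summed to 3, 0, 1 and 1 counts with water and 1, 1, 3 and 0 with zinc. Less similar copies on chromosome 2 (chr2:22477300-22480546, 97.4% identity over 3260 columns) and chromosome 4 (chr4:79920567-79923441, 93.0% identity over 2875 columns) held 14 to 24 counts together per library with water and 11 to 34 with zinc. Reads missing from these mitochondrial mRNAs thus did not appear under the annotated copies. The sources used here do not say how the counting treated reads that match more than one place, and its part in the counts of 0 was not tested. A total over mitochondrial genes in these data is accordingly a total over 8 well counted members: 6 mRNAs and both rRNAs, which had a mean of at least 1000 counts.

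**Figure D1:**
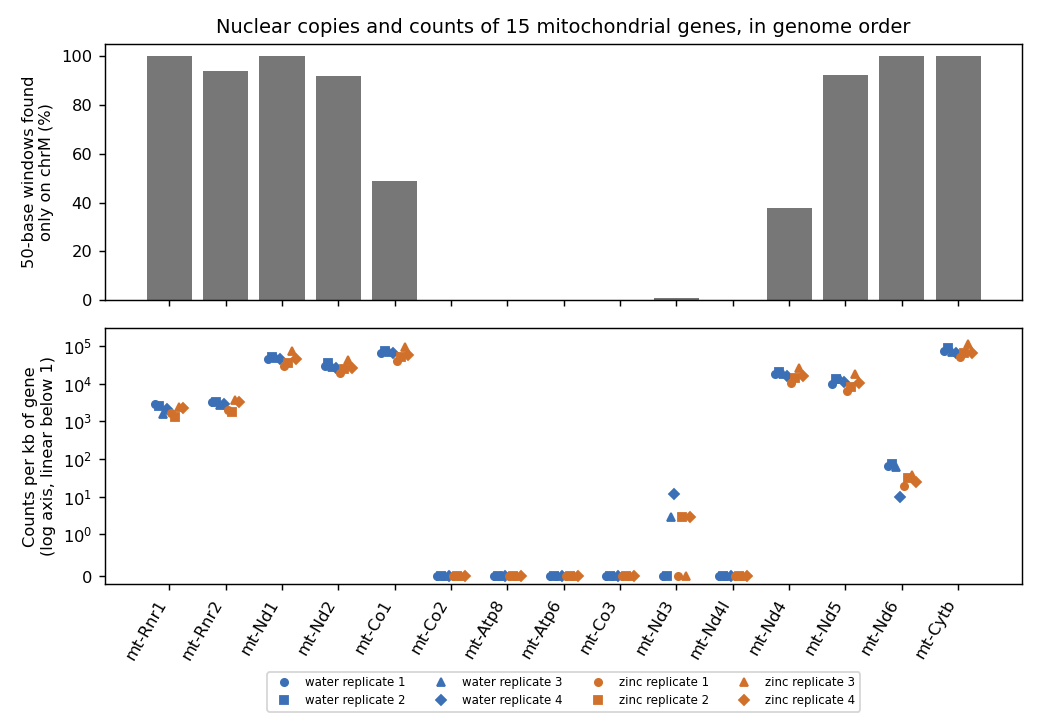
Top, percent of each gene's 50-base windows that occur only on chrM; bottom, counts per kb of gene in each of the 8 libraries on a log axis that is linear below 1, for the 13 mRNA and 2 rRNA genes in genome order (blue, water; orange, zinc; marker shape, replicate). The genes from mt-Co2 to mt-Nd4l have at most 1.00% unique windows, and of these only mt-Nd3 holds any counts.

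The tRNA genes were hardly represented. Of 22, 14 were at 0 in every library, and the 8 others held few. The 14 tRNA genes on the plus strand summed to 524 counts over all libraries, in 6 genes, and the 8 on the minus strand to 2 counts, in 2 genes. mt-Tt (threonine tRNA, ENSMUSG00000064371, chrM:15289-15355), which lies directly after mt-Cytb, was the only one with a mean of at least 1 CPM. It held 24, 30, 24 and 24 counts with water and 16, 19, 33 and 29 with zinc. Unique windows did not separate the tRNA genes as they did the mRNA genes: 13 had some and 6 of these were at 0, while 9 had none and 8 of these were at 0. The exception, mt-Tw (tryptophan tRNA), chosen after its values were seen, held 4 to 30 counts. The tRNA genes are 59 to 75 bases long, so a longer read runs into the neighbouring genes. Windows inside a gene cannot show whether such a read can be placed. Mature tRNAs are short and not polyadenylated, and a library made from poly(A) RNA does not measure them.

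Within the mitochondrial counts, mt-Co1 and mt-Cytb together took the larger part in every library. mt-Co1 took 32.1%, 31.9%, 33.5% and 33.8% with water and 31.1%, 31.3%, 31.2% and 32.3% with zinc. mt-Cytb took 27.2%, 27.9%, 25.7% and 25.0% with water and 29.0%, 29.3%, 27.6% and 26.2% with zinc. The groups overlapped in both genes. The other abundant mRNAs encode complex I subunits: mt-Nd1 took 13.9% to 14.9% over the 8 libraries, mt-Nd2 9.08% to 10.2%, mt-Nd4 7.08% to 7.90% and mt-Nd5 5.69% to 7.73%. The rRNAs of the mitochondrial ribosome followed, with mt-Rnr2 (16S rRNA, ENSMUSG00000064339, chrM:1094-2675) at 1.11% to 1.77% and mt-Rnr1 (12S rRNA, ENSMUSG00000064337, chrM:70-1024) at 0.464% to 0.870%.

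For the 6 abundant mRNAs composition varied less than amount. Over the 8 libraries the coefficient of variation of the 6 abundant mRNAs was 2.82% to 10.8% for their share of mitochondrial counts and 20.5% to 27.4% for their CPM. The rRNAs did not separate in this way. For mt-Rnr1 the share varied by 24.0% and the CPM by 24.9%, and for mt-Rnr2 by 15.3% and 21.4%. A share within the mitochondrial counts is free of changes in the nuclear RNA, but shares sum to a fixed total, so one gene's share moves with the others.

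**Figure D2:**
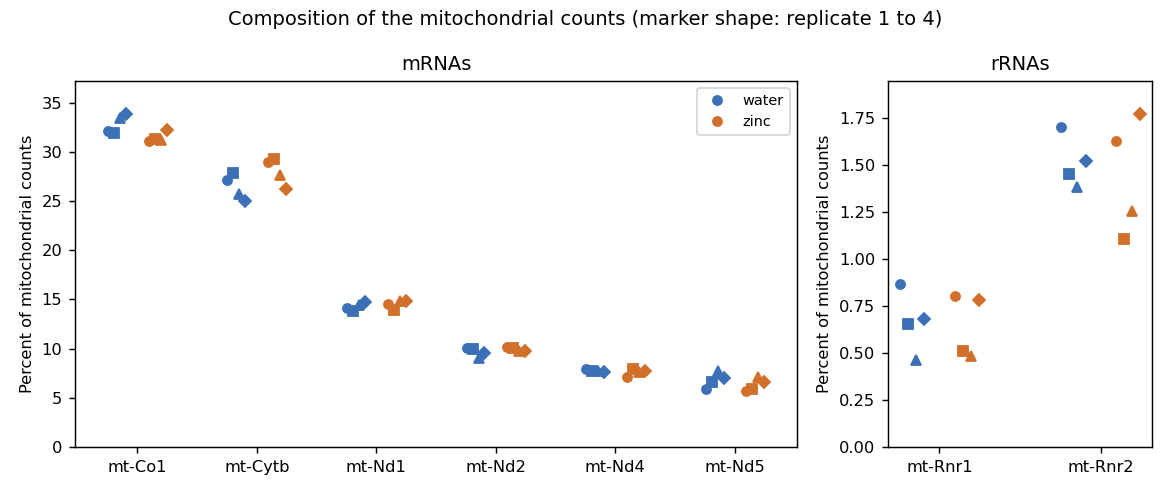
Share of all mitochondrially encoded counts taken by each abundant mRNA (left) and rRNA (right) in each library, in percent (blue, water; orange, zinc; marker shape, replicate 1 to 4). mt-Co1 lies between 31.1% and 33.8% and mt-Cytb between 25.0% and 29.3%, with the groups overlapping in all 8 genes.

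Levels of different genes were compared per length, as CPM per kb of gene on library totals. mt-Cytb had the highest level, 3341 ± 693 (SD, n = 8 libraries, as for all levels in this order), followed by mt-Co1 at 2928 ± 602, mt-Nd1 at 2123 ± 461, mt-Nd2 at 1326 ± 272, mt-Nd4 at 784 ± 171 and mt-Nd5 at 512 ± 140. Each neighbour in this order was higher than the next in 8 of 8 libraries, except that mt-Cytb was above mt-Co1 in 7 of 8. mt-Rnr2 (131 ± 27.9) and mt-Rnr1 (94.9 ± 23.6) were lower than each of these mRNAs, in libraries selected for poly(A). mt-Nd6 was lowest, at 1.83 ± 1.06.

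The order changed when the length was replaced by the part of a gene that a read can identify. Per 1000 unique 50-base windows mt-Co1 came first with 6189 ± 1272 CPM, above mt-Cytb with 3491 ± 725 in 8 of 8 libraries. mt-Nd4 moved up to 2153 ± 470, beside mt-Nd1 at 2237 ± 486, with mt-Nd1 higher in 5 of 8 libraries. With unique windows of 75 or 100 bases mt-Nd1 was higher in 8 of 8, at 2301 ± 500.2 and 2368 ± 515 against 2153 ± 470 for mt-Nd4. On 50-base windows mt-Nd2 (1518 ± 311) and mt-Nd5 (570 ± 156) followed in 8 of 8 libraries. With only the windows in the chromosome 1 copy removed, a scale chosen after seeing the data, mt-Co1 stood at 4244 ± 873 CPM per 1000 windows and was again above mt-Cytb in 8 of 8. Whether mt-Co1 or mt-Cytb had the higher level therefore depended on whether the copied windows were part of the length.

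For scale, 72 nuclear genes for respiratory chain and ATP synthase subunits passed the count filter, and their median level was 48.3 CPM per kb of canonical transcript, with a range of 1.14 to 435. In the mean over the 8 libraries, all 6 abundant mitochondrial mRNAs had higher levels per kb than every one of these nuclear genes. The closest were mt-Nd5, at 512 ± 140 with a range of 287 to 753, and the highest nuclear gene, Atp5f1b, at 435. Their order did not hold in every library.

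mt-Nd6 is the only mRNA gene on the minus strand, and it stood far below the abundant mRNAs in these libraries selected for poly(A). The part of that selection in its level was not tested. mt-Nd6 held 34, 38, 32 and 5 counts with water and 10, 16, 19 and 13 with zinc. Water replicate 4 was lowest and the other water libraries were above all zinc libraries, so the groups overlapped through that library alone. Its mRNA strand has 28.1% G, against 5.88% to 16.1% in the other 12 mRNA genes. Its last bases overlap those of mt-Nd5 on the other strand by 14 bases, and the overlap is shown because a read there belongs to one gene or the other by strand alone. Capitals mark the shared bases at chrM:13552-13565, written on the plus strand.
mt-Nd5 and mt-Nd6: atactcaaTTAATCTCGAGTAAtctcgata
The library kit keeps strand, but the sources used here do not give the strand setting of the counting. Without it, reads of mt-Nd6 and of plus-strand precursors across it cannot be told apart.

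As a share of mitochondrial mRNA counts, mt-Nd6 took 0.0113%, 0.0107%, 0.0103% and 0.00174% with water and 0.00512%, 0.00651%, 0.00415% and 0.00471% with zinc. The means were 0.00850% ± 0.00453 and 0.00512% ± 0.00101 (SD, n = 4 each), and the difference did not pass an exact two-sided permutation test (p = 0.143, where the smallest p that 70 assignments allow is 0.0286). Without water replicate 4 the difference was -0.00564 points (exact permutation p = 0.0571), compared with -0.00338 points with all libraries. The remaining water libraries then lay above all zinc libraries, and this p was the smallest that so few libraries allow. On the log2 of the share the exact permutation p was 0.629 with all libraries.

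Another feature of the mitochondrial mRNAs is that some lack a complete stop codon in the genome, which the poly(A) tail then completes. In 3 of 13 genes the length was not a multiple of 3 and the last codon was a lone T. The ends of mt-Cytb and mt-Nd4 are shown beside that of mt-Co1, since these 3 genes were counted and differ in this respect. Capitals mark the bases of the last codon present in the genome.
mt-Cytb: taaaattatatccaT
mt-Nd4: caggcctgacaataT
mt-Co1: gtaaaagtaaaaTAA

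Zinc was compared with water for each gene on counts, by edgeR's quasi-likelihood test with TMM scaling (trimmed mean of M-values, which rescales the library totals so that the bulk of genes shows no difference) and Benjamini-Hochberg adjustment over 11988 tested genes. Of the 37 members 12 passed the filter on low counts: 7 mRNAs, both rRNAs and 3 tRNAs. At an adjusted p below 0.05, 0 of 12 were called, against 0.0834% of all tested genes (0.025% higher and 0.0584% lower with zinc). An unadjusted p below 0.05 was reached by 0 of 12, against 4.65% of all tested genes. The same counts of 0 were obtained with DESeq2 and with limma-voom, adjusted or not, where all tested genes gave 0.284% and 0.0918% at an adjusted p below 0.05 and 4.95% and 5.05% at an unadjusted one. The groups overlapped in TMM-scaled CPM in all 12, while 2.84% of all tested genes did not overlap.

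The mRNAs of the respiratory complexes are given in order of their place in the chain, as counts per library and as mean TMM-scaled CPM. mt-Nd1 held 43905, 50342, 45713 and 43299 counts with water and 29057, 34768, 69454 and 42179 with zinc, or 2124 ± 464 and 1946 ± 533 CPM (SD, n = 4 each, as for all means in this paragraph). mt-Nd2 held 31235, 36179, 28705 and 27997 with water and 20349, 25269, 45601 and 27602 with zinc, or 1448 ± 394 and 1325 ± 325 CPM. In both complex I genes zinc replicate 1 was the lowest and zinc replicate 3 the highest in counts, and the water libraries lay between them. mt-Nd4 held 24471, 27896, 24349 and 22574 with water and 14177, 19720, 35676 and 21834 with zinc, or 1155 ± 285 and 1013 ± 269 CPM. mt-Nd5 held 18396, 23837, 24454 and 20720 with water and 11384, 14731, 33144 and 18712 with zinc, or 1000.1 ± 151 and 856 ± 303 CPM. These complex I genes kept the same extremes, and the SD of mt-Nd5 was larger with zinc. mt-Cytb of complex III held 84168, 101346, 81254 and 73610 with water and 58047, 73195, 128781 and 74426 with zinc, or 3967 ± 1072 and 3739 ± 944 CPM. mt-Co1 of complex IV held 99377, 115984, 105850 and 99596 with water and 62224, 78164, 145461 and 91513 with zinc, or 4870 ± 1019 and 4191 ± 1041 CPM. In counts the zinc libraries again spanned the whole range of the water libraries. On the TMM scale they did not: water replicate 1 was highest in 5 of the 6 mRNAs and zinc replicate 3 in 1, and the lowest library was water replicate 4, zinc replicate 1 or zinc replicate 4 in 2 mRNAs each.

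The log2 fold changes of these 6 mRNAs, zinc over water, were about the size of their errors or smaller. They were -0.13 (SE 0.21) for mt-Nd1, -0.13 (SE 0.21) for mt-Nd2, -0.19 (SE 0.20) for mt-Nd4 and -0.22 (SE 0.20) for mt-Nd5. For mt-Cytb the log2 fold change was -0.09 (SE 0.23) and for mt-Co1 it was -0.22 (SE 0.22). The edgeR adjusted p was 0.998 for every tested member.

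The rRNAs had counts of the same kind. mt-Rnr1 held 2694, 2383, 1466 and 2001 counts with water and 1614, 1276, 2247 and 2215 with zinc, with a log2 fold change of -0.30 (SE 0.31). mt-Rnr2 held 5284, 5276, 4372 and 4484 with water and 3262, 2773, 5859 and 5026 with zinc, with a log2 fold change of -0.28 (SE 0.21). In CPM of the library total both were lowest in zinc replicate 2 and highest in water replicate 1, and on that scale their extremes were not in the libraries that held those of the mRNAs. On the TMM scale water replicate 1 was highest in both rRNAs, at 168 and 330 CPM, as in 5 of the 6 mRNAs. The largest estimate among the members was that of mt-Nd6, -0.99 (SE 0.56, edgeR unadjusted p = 0.0957, adjusted p = 0.998), at 1.33 ± 0.821 CPM with water and at 0.655 ± 0.128 in the zinc group (SD, n = 4 each). By limma-voom the log2 fold change of mt-Nd6 was -0.46. The tested tRNAs had log2 fold changes of -0.12 (SE 0.39) for mt-Tt and, named after their values were seen, -0.50 (SE 0.63) for mt-Ti and -0.13 (SE 0.55) for mt-Tw.

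All 12 estimates lay below 0, against 48.1% of all tested genes, and their median was -0.20 against 0.01 over all tested genes. The members are transcribed together and counted in the same libraries, so they are not 12 independent observations. On the TMM scale the direction of these estimates rested on water replicate 1: without it they were 6 below and 6 above 0 with a median of -0.01. With any other single library left out, 11 or 12 of 12 lay below 0. Without zinc replicate 3 the median was -0.38. An unadjusted edgeR p below 0.05 was then reached by 2 of 12, against 562 of 12180 tested genes, and 0 of 12 were called. Without water replicate 4 that p was reached by 1 of 12, against 641 of 12123 tested genes. Without zinc replicates 1 and 3 together all 12 were below 0 with a median of -0.37, and 0 of 12 were called.

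**Figure D3:**
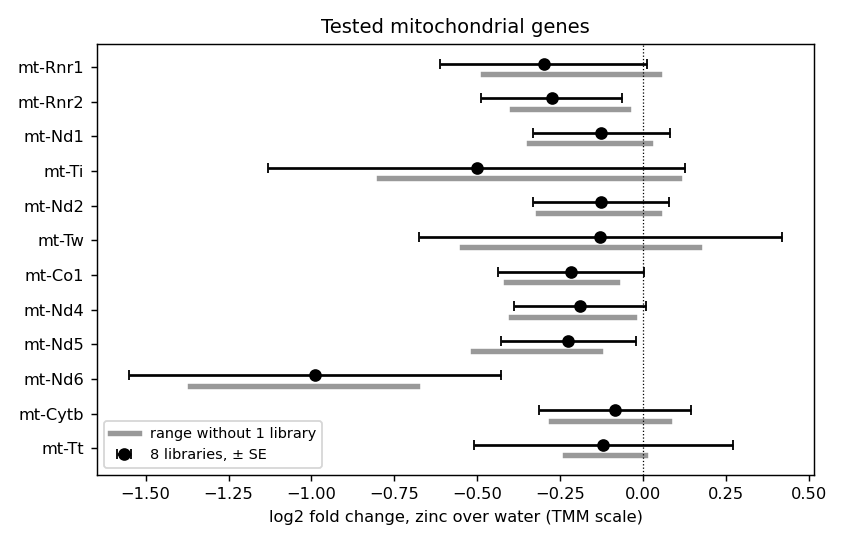
Log2 fold change of zinc over water on the TMM scale for the 12 tested mitochondrial genes; points and bars are the estimate ± SE from 8 libraries, and grey bars are the range of estimates with each library left out in turn. All points lie left of 0 (dotted line), and mt-Nd6 lies furthest at -0.99.

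The amount of mitochondrially encoded RNA was next taken as one value per library, the share of all counts. In bulk samples fewer cells of a type and less RNA per cell cannot be told apart, and the same holds for a share of counts. It was 1.48%, 1.59%, 1.42% and 1.36% with water and 0.920%, 1.20%, 1.93% and 1.35% with zinc. The counting error was small beside these differences, since the 95% Wilson interval reached at most 0.00550 points to either side. Zinc libraries thus lay both below and above all water libraries. The difference in means was -0.112 points (exact two-sided permutation p = 0.629), and -0.107 points without water replicate 1 (exact permutation p = 0.686). It turned to 0.0316 points when zinc replicate 1 was left out (exact permutation p = 0.914). Leaving out zinc replicate 3 gave -0.306 points (exact permutation p = 0.0571), and leaving out both gave -0.188 points (exact permutation p = 0.133). In both cases the remaining zinc libraries lay below all water libraries, and the p was the smallest that so few libraries allow.

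The spread within the zinc group was the larger one on library totals. Its SD of the mitochondrial share was 4.49 times that of the water group, and 0.801% of tested genes had a ratio at least as large, with a median gene at 0.962. This rested on zinc replicates 1 and 3: the ratio was 4.07 without replicate 1, 2.28 without replicate 3 and 1.06 without both. The mitochondrial share is a sum, while the tested genes are single genes. Among members with all libraries the ratio was 2.54 to 8.10 in the 6 abundant mRNAs and 2.34 in mt-Rnr2. It was 0.749 in mt-Rnr1, 0.226 in mt-Nd6 and 0.785 for the nuclear respiratory chain sum. On the TMM scale the ratio for the mitochondrial sum was 0.985, and 40.1% of tested genes had a ratio at least as large, while without zinc replicate 3 it was 0.165. The wider spread of the mitochondrial sum with zinc was thus seen on library totals and not on the TMM scale.

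Zinc replicate 3 exceeded zinc replicate 1 by 2.00-fold to 2.63-fold in the 6 abundant mRNAs on library totals, by 1.62-fold in mt-Rnr2 and by 1.26-fold in mt-Rnr1. The median over all tested genes was 1.36-fold, and the nuclear respiratory chain genes summed to 1.31-fold. On the TMM scale the mRNAs differed by 1.48-fold to 1.94-fold, the median gene by 1.00-fold and the nuclear respiratory chain sum by 0.970-fold. Some marker shares also differed between these libraries. Enterocyte markers took 0.0335% of counts in zinc replicate 1 and 0.0486% in zinc replicate 3, the lowest and highest of the 8 libraries. Tuft cell markers took 0.00142% and 0.00934%, against 0.0163% in water replicate 4, and Paneth cell markers 55.0% and 48.8%. Goblet cell markers took 1.11% and 1.14%, and stem and dividing cell markers 0.407% and 0.452%. Zinc replicate 4 had an enterocyte share of 0.0483% with a mitochondrial share of 1.35%. Water replicate 1 had marker shares close to those of zinc replicate 1 (enterocyte 0.0363%, tuft 0.00118%, Paneth 54.6%) with a mitochondrial share of 1.48%. Malat1, an RNA retained in the nucleus, took 0.000543% in zinc replicate 1, the lowest of all libraries, and 0.000974% in zinc replicate 3. The part of these in the mitochondrial share was not tested.

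**Figure D4:**
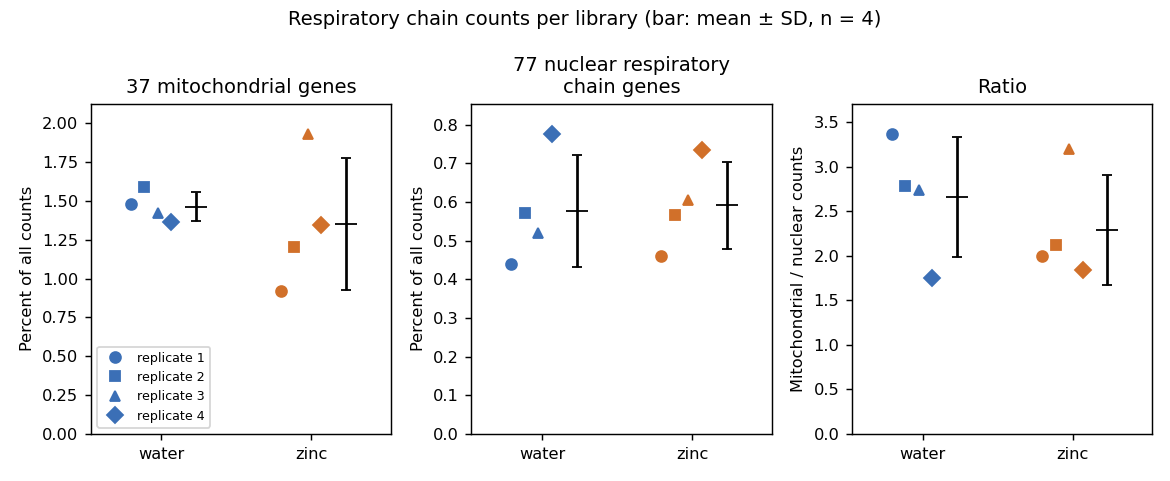
Percent of all counts from the 37 mitochondrial genes (left) and from 77 nuclear respiratory chain and ATP synthase genes (middle), and the ratio of the former to the latter (right), per library with mean ± SD (n = 4 each; marker shape, replicate). Zinc replicates 1 and 3 are the lowest and highest libraries in the left panel, at 0.920% and 1.93%, but not in the middle panel.

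Within the mitochondrial counts the classes were compared in the same way. rRNAs took 2.58%, 2.11%, 1.85% and 2.203% with water and 2.44%, 1.62%, 1.74% and 2.55% with zinc (mean 2.18% ± 0.303 and 2.09% ± 0.476, SD, n = 4 each, exact permutation p = 0.743). tRNAs took 0.0210%, 0.0198%, 0.0187% and 0.0245% with water and 0.0150%, 0.0160%, 0.0225% and 0.0293% with zinc (exact permutation p = 0.943). In both classes the groups overlapped and the spread between libraries exceeded the difference.

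Counted complex IV mRNA is mt-Co1 alone, since mt-Co2 and mt-Co3 were at 0. It took 33.0%, 32.6%, 34.1% and 34.6% of mitochondrial mRNA counts with water and 31.9%, 31.8%, 31.8% and 33.1% with zinc. Of the zinc libraries 3 were below all water libraries, and zinc replicate 4 was above 2 of them. The means were 33.6% ± 0.941 and 32.1% ± 0.662 (SD, n = 4 each), a difference of -1.44 points that did not pass the test (exact two-sided permutation p = 0.0857). Complex III, which is mt-Cytb, took 27.0% ± 1.39 and 28.6% ± 1.37, complex I 39.4% ± 0.448 and 39.2% ± 0.939, and complex V 0% in every library. These complement the share of mt-Co1 and were not tested.

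The nuclear partners of these genes were examined on lists of genes fixed by function. The 77 nuclear genes for subunits of complexes I, III and IV and the ATP synthase took 0.438%, 0.571%, 0.521% and 0.776% of counts with water and 0.460%, 0.566%, 0.604% and 0.733% with zinc. The means were 0.577% ± 0.144 and 0.591% ± 0.113 (SD, n = 4 each, exact permutation p = 0.857). Of the 72 that passed the filter, edgeR called 0 and gave 0 with an unadjusted p below 0.05, and both counts were 0 by DESeq2 and by limma-voom too. For all tested genes these shares were 0.0834% and 4.65% by edgeR. The median log2 fold change of the 72 genes was 0.05, with 54 above and 18 below 0, where 51.9% of all tested genes lay above 0. By complex the medians were 0.07 for 37 genes of complex I, 0.05 for 9 of complex III, 0.01 for 11 of complex IV and 0.06 for 15 of the ATP synthase. The split itself depended on a library, with 23 above and 49 below 0 without water replicate 3.

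Lists of nuclear genes for mitochondrial gene expression held 199 genes, of which 196 were tested. The calls numbered 0 by edgeR, by DESeq2 and by limma-voom, and the genes at an unadjusted p below 0.05 numbered 3, 3 and 5, where 4.65%, 4.95% and 5.05% of all tested genes reached it. The median log2 fold change over the lists was 0.07, with 137 above and 59 below 0, against 51.9% of all tested genes above 0. Without water replicate 3 it was 0.01, with 108 above and 88 below. With all libraries it was 0.10 for 76 proteins of the mitochondrial ribosome, 0.08 for 37 genes of RNA processing and turnover, 0.05 for 17 chaperones and proteases, 0.03 for 34 translation factors, 0.02 for 11 regulators of biogenesis and -0.01 for 21 genes of DNA upkeep and transcription.

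Among single genes of these lists, Tfam (ENSMUSG00000003923), which packages mitochondrial DNA and starts its transcription, had 37.6 ± 2.73 CPM with water and 41.4 ± 1.99 with zinc on the TMM scale (SD, n = 4 each), and its log2 fold change was 0.14 (SE 0.11). Polrmt (ENSMUSG00000020329), the mitochondrial RNA polymerase, had 15.8 ± 1.54 and 14.2 ± 1.68 CPM, a log2 fold change of -0.16 (SE 0.14). Lrpprc (ENSMUSG00000024120), which stabilises mitochondrial mRNAs, had 50.4 ± 2.38 and 53.8 ± 4.80 CPM, a log2 fold change of 0.10 (SE 0.11). In each of the 3 the estimate was less than 2 SE from 0. Ppargc1a (ENSMUSG00000029167), a coactivator of mitochondrial biogenesis, was low in both groups, at 2.75 ± 1.48 and 2.66 ± 1.61 CPM.

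The smallest unadjusted p-values in these lists, the ribosome left out, belonged to Taco1 and Grpel2. Taco1 (ENSMUSG00000001983), which activates translation of mt-Co1, had 10.3, 8.33, 8.16 and 7.14 CPM with water and 9.86, 9.90, 13.04 and 13.07 with zinc. The groups overlapped through water replicate 1, and the log2 fold change was 0.44 (SE 0.17, edgeR unadjusted p = 0.0176, adjusted p = 0.998). Grpel2 (ENSMUSG00000024580), a cochaperone of mitochondrial protein import, had 40.8, 40.4, 50.3 and 32.8 CPM with water and 36.1, 31.9, 33.6 and 27.4 with zinc. Its groups overlapped as well, and the log2 fold change was -0.35 (SE 0.13, edgeR unadjusted p = 0.0183, adjusted p = 0.998).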

How the data were processed

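RNA of sorted Paneth cells was prepared with a stranded mRNA kit. The authors deposited raw counts per gene for 8 libraries, and the submitters' processing notes name STAR 2.7.0a, FastQC 0.12.0, DESeq2 and mm39. The sources used here do not give the counting program, its strand setting, its treatment of reads with several matches or the read length of these libraries. The study gives an average read length for its sequencing in general, between the 50-base and 100-base windows used here. Groups came from the labels. From the deposited counts, edgeR 4.0.16 (R 4.3.3, TMM, filterByExpr with a minimum of 10, robust quasi-likelihood fit, treatment as the only term) was run on the whole table, with DESeq2 1.42.0 and limma 3.58.1 as alternatives. Fits were tested on simulated data. Shares were compared by exact permutation over 70 assignments (SciPy 1.17.1). Gene positions came from GENCODE M39 on GRCm39, the same assembly as mm39, nuclear copies of at least 500 aligned columns from BLAST+ 2.17.0, and window uniqueness from exact matches. The members and lists were chosen with earlier results of these data known. Named genes were the 13 mRNA and 2 rRNA genes, tRNA genes with a mean of at least 1 CPM, and, with no nuclear gene called, Tfam, Polrmt, Lrpprc, Ppargc1a and the 2 genes of the lists other than the ribosome with the smallest unadjusted p. Alternatives changed the scaling, filter, test, denominator and libraries. Wilson intervals at 95% cover counting error only.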

Additional observations from a re-analysis of the deposited data

Results flagged for a closer look

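In groups of 4 libraries, 60 groups of values were checked for a library far from the others by Dixon's criterion, which chance alone meets in about 1 in 20 groups, and 6 met it. They are given as values. mt-Nd6 took 0.00174% of mitochondrial mRNA counts in water replicate 4, against 0.0103% to 0.0113% in the other water libraries. In the same library mt-Nd6 stood at 0.231 CPM of the library total, against 1.44 to 1.66, and these 2 values rest on the same 5 counts. The complex IV share of mitochondrial mRNA counts was 33.1% in zinc replicate 4, against 31.8% to 31.9% in the other zinc libraries. On the TMM scale zinc replicate 3 stood apart in 3 mRNAs: mt-Nd1 was at 2744 CPM against 1636 to 1725, mt-Co1 at 5747 CPM against 3549 to 3774, and mt-Nd5 at 1309 CPM against 676 to 726. The cause was not tested.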

How the results depend on the processing

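No mitochondrial gene and no listed nuclear gene for mitochondrial gene expression passed the threshold under any alternative, libraries left out included. Of the other alternatives 164 values kept their direction and side of the threshold and 1 did not: without zinc replicates 1 and 3 together, chosen after seeing the data, the difference in tRNA share was 0.00165 points against -0.000288, and the cause was not tested. With 1 library left out in turn, the difference ranged from -0.306 to 0.0316 points for the mitochondrial share of counts, from -0.252 to 0.0591 for the rRNA share, from -0.00315 to 0.00161 for the tRNA share and from -0.0332 to 0.0809 for the nuclear respiratory chain share. It kept its sign from -0.00564 to -0.00246 for the mt-Nd6 share and from -1.77 to -1.09 for the complex IV share. Log2 fold changes that changed sign ranged from -0.48 to 0.0469 for mt-Rnr1, -0.34 to 0.0204 for mt-Nd1, -0.80 to 0.11 for mt-Ti, -0.32 to 0.0493 for mt-Nd2, -0.55 to 0.17 for mt-Tw, -0.28 to 0.0798 for mt-Cytb and -0.24 to 0.00672 for mt-Tt. Those that stayed below 0 ranged from -0.40 to -0.0451 for mt-Rnr2, -0.41 to -0.0787 for mt-Co1 and -0.40 to -0.0264 for mt-Nd4. The same held for mt-Nd5, from -0.51 to -0.13, and mt-Nd6, from -1.37 to -0.68. Without a filter on low counts 18 members were tested, 17 below and 1 above 0.

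Replicate numbers were not taken to pair the libraries. Same-numbered libraries deviated together with a correlation above 0.1 in 3 of 4 pairs (0.0001 to 0.263), and 6 of 8 libraries correlated best with their own number. With the replicate block 0 of 12 members were called, all 12 were below 0 and the median was -0.22, while calls over all tested genes went from 10 to 32. For the shares the block leaves the differences as they are, with exact sign-flip p = 0.625 for the mitochondrial share and p = 0.125 for complex IV, the smallest that 4 pairs allow, since the complex IV share was lower with zinc in 4 of 4 same-numbered pairs. The mt-Cytb share was higher in 4 of 4. Depth limits mt-Nd6, the tRNAs and mt-Nd3, which hold few counts.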

Other observations

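The ratio of the rRNAs, mt-Rnr1 counts over mt-Rnr2 counts, was 0.510, 0.452, 0.335 and 0.446 with water and 0.495, 0.460, 0.384 and 0.441 with zinc, for genes of 955 and 1582 bases. Mitochondrially encoded counts over nuclear respiratory chain counts were 3.37, 2.78, 2.74 and 1.76 with water and 2.00, 2.13, 3.20 and 1.84 with zinc. TMM factors of same-numbered libraries lay close to each other, at 0.764 and 0.775, 1.02 and 0.998, 1.066 and 1.05, and 1.21 and 1.23 for water and zinc replicates 1 to 4. The nuclear respiratory chain share was also lowest in replicate 1 and highest in replicate 4 of both groups, while the mitochondrial share was not. The labels give no batch, day or litter for these numbers, and the part of either in these values was not tested.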
